A study of Sus scrofa with 11 samples.

Results

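The genes described here build and read the chromosome's attachment site, move chromosomes apart, or license DNA for copying, together with the kinesin motors that share the family name but carry cargo in cells that are not dividing. Members were chosen by symbol: every probe set whose single gene symbol in the platform annotation begins with CENP or KIF, begins with MCM or SKA followed by a digit, or is HMMR. This gave 53 of 27558 probe sets, for 51 genes. KIF21A and CENPJ were each measured by 2 probe sets, and the probe set with the higher mean signal stood for the gene. By role, 29 genes are proliferation genes: 11 of the centromere, 4 of the outer kinetochore and spindle, 12 mitotic kinesins and 2 of the replication licensing helicase. Another 17 genes are kinesins and adaptors of cargo transport and cilia, called transport kinesins here, and 5 have other roles.

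The study worked on the left ventricle of intact male Yorkshire pigs in which a device that gradually narrows an artery, an ameroid constrictor, sat on the left circumflex coronary artery. The pigs ate a high fat diet (HFD) or a normal diet (ND) for 12 weeks, and the ischemic heart muscle was injected with extracellular vesicles (EV), the small membrane particles that cells shed, or with vehicle alone. Heart tissue from the ischemic zone was taken 5 weeks after the injection, and 50 ng of total RNA per sample went onto Affymetrix arrays. The 11 arrays comprised 3 of HFD+EV, 2 of HFD with vehicle, 3 of ND+EV and 3 of ND with vehicle. All groups thus share the constrictor and an injection, the labels do not give the cells that made the vesicles or the age of the pigs, and hearts without a constrictor are not analysed here. The titles call the arrays of a group biological replicates, but no label ties an array to a named animal, so p-values measure the spread between these samples.

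Kinesins are motor proteins that use ATP to walk along microtubules or to shorten them. In a dividing cell the centromere, marked by the histone variant CENPA, carries a layer of CENP proteins on which the kinetochore assembles, and mitotic kinesins and the Ska complex couple it to the spindle. Before that, the MCM helicase is loaded on DNA so that each stretch is copied once. Adult heart muscle cells rarely divide, whereas fibroblasts, immune cells and vessel cells of the heart can. The conventional kinesin KIF5B and its relatives instead carry mitochondria, vesicles and RNA in all cells.

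All values are the log2 signal per probe set that the authors deposited. The labelled tissue was borne out by its markers: the log2 signal of MYH7, the slow cardiac myosin, ran from 12.07 to 12.70 over the arrays, and that of ACTC1, cardiac actin, from 13.12 to 13.64. ND replicates 1 and 3 stood apart from the rest. Their mean correlation with the other arrays, over all probe sets, was 0.946 and 0.952, against 0.965 to 0.972 for the other 9 arrays, so values without both are also given below for SKA2, KIF5B, KIF14, KIF21A, HMMR, KIF2B, KIF12, KIF13B and the transport kinesins, and without each in turn for CENPC. Other differences against ND are given with all 3 ND arrays. Precision is limited by how few arrays each group has.

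Of the 51 genes, 43 passed a filter that left out the lowest 25% of probe sets by mean signal, and so were tested. The 8 below it were CENPL, CENPQ, CENPU, SKA1, KIF11, KIF18A and KIF20B, all proliferation genes, and the transport kinesin KIF6. Tests were made with limma over all 20668 probe sets that passed, with Benjamini-Hochberg adjustment and a threshold of 0.05. In HFD minus ND, 2 of the 43 genes tested passed, SKA2 and KIF5B, beside 0.735% of all probe sets. For HFD+EV minus HFD, ND+EV minus ND and HFD+EV minus ND+EV no member passed, nor did any probe set (0%). The same held for the difference between the EV effects of the 2 diets (0%) and for an F test of any difference among the 4 groups (0%), in which 5 members had an unadjusted p under 0.05 beside 17% of all probe sets: SKA2, KIF5B, KIF14, HMMR and KIF21A.

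At an unadjusted p under 0.05, limma counted 0 members in HFD+EV minus HFD beside 5.54% of all probe sets, and 8 members in ND+EV minus ND beside 8.51%. It counted 7 members in HFD minus ND beside 24%, and 1 in HFD+EV minus ND+EV beside 7.36%. For the difference of EV effects the count was 4, beside 8.42%. As shares of the 43 genes tested, these are 0%, 18.6%, 16.3%, 2.33% and 9.3%. The count in ND+EV minus ND ran from 5 to 7 when single arrays were left out, being 5 without HFD+EV 2 or 3, either HFD array, or ND+EV 1 or 2. That in HFD minus ND ran from 4 without HFD 2 to 9 without ND 3.

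SKA2, a subunit of the Ska complex that holds kinetochores on the ends of spindle microtubules, showed the widest change of all members. Its log2 signal was 6.21, 6.66 and 6.40 in HFD+EV, 6.40 and 6.52 in HFD, 5.85, 6.10 and 6.02 in ND+EV, and 4.84, 5.37 and 4.38 in ND. Every ND array lay below every other array, and the ND+EV arrays lay below all HFD+EV and HFD arrays. Group means were 6.42 ± 0.22 in HFD+EV (SD, n = 3), 6.46 ± 0.08 in HFD (n = 2), 5.99 ± 0.13 in ND+EV (n = 3) and 4.86 ± 0.49 in ND (n = 3). SKA2 rose in HFD relative to ND by 1.59 on the log2 scale (SE 0.245, limma adjusted p = 0.0471), which is 3.02-fold. In bulk tissue such as this, fewer cells of a type and less RNA per cell cannot be told apart.

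In ND+EV minus ND the difference of SKA2 was 1.13 (SE 0.219, limma adjusted p = 0.535), which did not pass, although the groups did not overlap, and without ND replicates 1 and 3 it was 0.62 (adjusted p = 0.779). Under the high fat diet, HFD+EV minus HFD, it was -0.04, with a 95% interval from -0.58 to 0.51. The difference between these EV effects was -1.16 (SE 0.329, limma adjusted p = 0.572), and -0.66 without the same 2 ND arrays. In HFD+EV minus ND+EV the difference was 0.43 (limma adjusted p = 0.702), again without overlap.

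The SKA2 call in HFD minus ND depended on many of the arrays, not only on the ND arrays that stood apart. Without both of those ND arrays the difference was 1.09, in a fit where the lone ND array is assumed to vary like the other groups. Leaving out single arrays gave differences between 1.35 and 1.85 and ended the call for 9 of the 11, namely HFD+EV 2 and 3, HFD 1 and 2, each of the 3 ND+EV arrays, and ND 1 and 3. The adjusted p then ran from 0.0553 without ND 3 to 0.263 without HFD 2. No probe set in this comparison had an adjusted p under 0.0471, so all 152 calls lay close to the threshold.

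**Figure D1:**
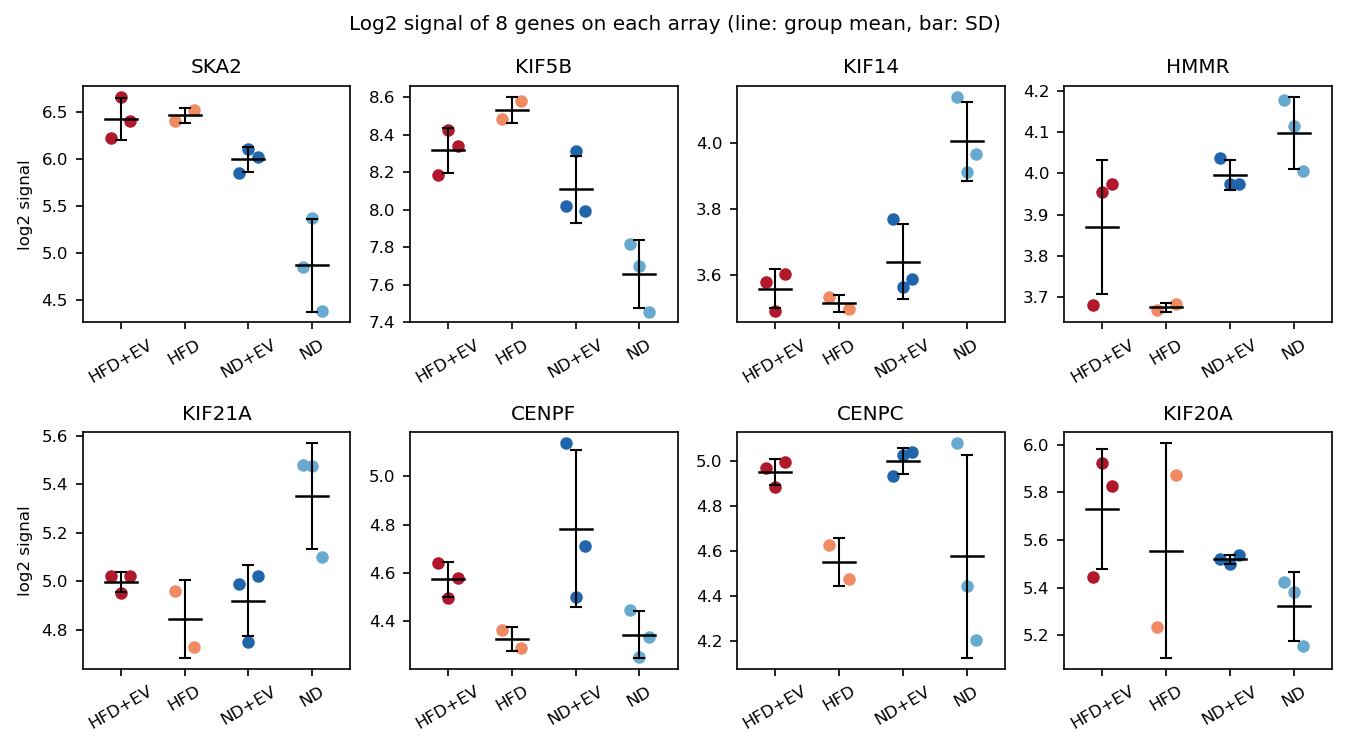
Log2 signal (vertical axis) of 8 members on each array, by group (horizontal axis: HFD+EV, HFD, ND+EV, ND). Each point is 1 array, the line is the group mean and the bar its SD. SKA2 and KIF5B are lowest on the 3 ND arrays, KIF14 and KIF21A are highest there, and CENPC and CENPF lie higher in HFD+EV than in HFD without overlap.

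None of the other genes of the outer kinetochore and spindle rose as far as SKA2 in HFD minus ND. In ND+EV minus ND, 3 of the 4 genes of this list were higher, SKA2 among them. HMMR, a hyaluronan receptor that also binds spindle microtubules, had log2 signals of 3.68, 3.95 and 3.97 in HFD+EV, 3.67 and 3.68 in HFD, 4.04, 3.97 and 3.97 in ND+EV, and 4.18, 4.11 and 4.005 in ND. Both HFD arrays were below all arrays with the normal diet, and the HFD+EV arrays were split, with replicate 1 at the level of HFD. The difference of HMMR in HFD minus ND was -0.42 (SE 0.128, limma adjusted p = 0.0932), so it did not pass, and -0.44 without ND replicates 1 and 3. It was -0.30 after cyclic loess (limma adjusted p = 0.251) and -0.30 after quantile normalization (limma adjusted p = 0.269).

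CENPF, a large coiled-coil protein that coats the kinetochore late in the cell cycle, had log2 signals of 4.64, 4.50 and 4.58 in HFD+EV, 4.36 and 4.29 in HFD, 5.14, 4.50 and 4.71 in ND+EV, and 4.45, 4.25 and 4.34 in ND. In both diets each array with EV was above each array with vehicle. The difference was 0.25 in HFD+EV minus HFD (SE 0.173, limma adjusted p = 0.925) and 0.44 in ND+EV minus ND (SE 0.155, limma adjusted p = 0.548). Neither passed, and without ND+EV replicate 1, its highest array, the ND difference of CENPF was 0.26. SKA1, the partner of SKA2 in the Ska complex, lay below the signal filter, with group means of 3.32 in HFD+EV, 3.32 in HFD, 3.42 in ND+EV and 3.28 in ND, and showed no overlap-free comparison.

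Among the 11 centromere genes, 8 were tested and none passed. CENPC, which ties CENPA nucleosomes to the outer kinetochore, had log2 signals of 4.97, 4.89 and 4.999 in HFD+EV, 4.63 and 4.48 in HFD, 4.94, 5.03 and 5.04 in ND+EV, and 5.08, 4.45 and 4.20 in ND. The 6 arrays with EV lay close together, while ND replicate 1 was as high as they were and the other ND arrays were low. The difference of CENPC was 0.40 in HFD+EV minus HFD (SE 0.212, limma adjusted p = 0.905), the smallest p of any member there, and 0.43 in ND+EV minus ND (SE 0.189, limma adjusted p = 0.582). Without ND replicate 1 the ND difference was 0.68, and without ND replicate 3 it was 0.24.

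CENPB, which binds a short motif in centromeric repeats, went the opposite way. Its log2 signal was 6.40, 7.05 and 7.20 in HFD+EV, 7.09 and 7.37 in HFD, 6.56, 6.61 and 6.31 in ND+EV, and 6.19, 6.81 and 6.81 in ND. The HFD arrays were above all arrays with the normal diet, and HFD+EV replicate 1 lay among those. The difference was 0.63 in HFD minus ND (SE 0.257, limma adjusted p = 0.174) and -0.35 in HFD+EV minus HFD (limma adjusted p = 0.926). In HFD minus ND it was 0.38 after cyclic loess and 0.37 after quantile normalization, and in HFD+EV minus HFD it was -0.10 without HFD+EV replicate 1 and -0.21 without HFD replicate 2.

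The histone variant CENPA had group means of 5.22 ± 0.05 in HFD+EV, 5.10 ± 0.21 in HFD, 5.31 ± 0.28 in ND+EV and 5.35 ± 0.38 in ND, and its groups overlapped in every comparison. CENPW, a histone-fold partner of CENPT, averaged 3.53 ± 0.18 in HFD+EV, 3.56 ± 0.03 in HFD, 3.72 ± 0.19 in ND+EV and 3.78 ± 0.14 in ND. Both HFD arrays of CENPW were below all ND arrays, a difference of -0.22 (limma adjusted p = 0.417). The HFD+EV and HFD means of CENPW lay under the signal filter's cut of 3.63. CENPQ and CENPU, subunits of the same inner layer, were below the filter; CENPQ averaged 3.51 in HFD and 3.10 in ND, and CENPU averaged 3.40 in HFD and 3.58 in ND, each without overlap and in opposite directions. CENPI, CENPK, CENPL, CENPO and CENPT overlapped between groups in all 4 comparisons.

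Of the 12 mitotic kinesins, 9 were tested and none passed in any comparison. KIF14, which works in the last step of cell division, had log2 signals of 3.58, 3.49 and 3.60 in HFD+EV, 3.53 and 3.50 in HFD, 3.77, 3.56 and 3.59 in ND+EV, and 4.14, 3.91 and 3.97 in ND. All ND arrays were above all other arrays, the mirror image of SKA2. The difference was -0.49 in HFD minus ND (SE 0.125, limma adjusted p = 0.0736) and -0.36 in ND+EV minus ND (SE 0.112, limma adjusted p = 0.548). KIF14 passed in HFD minus ND without ND replicate 2, at -0.54 with a limma adjusted p of 0.0487, and its difference without ND replicates 1 and 3 was -0.39 (adjusted p = 0.378).

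KIF20A, which carries the chromosomal passenger complex to the spindle midzone, had log2 signals of 5.44, 5.92 and 5.83 in HFD+EV, 5.24 and 5.87 in HFD, 5.52, 5.50 and 5.54 in ND+EV, and 5.43, 5.38 and 5.16 in ND. The HFD arrays spanned nearly the whole range, so HFD+EV and HFD overlapped, at a difference of 0.18 (limma adjusted p = 0.973). In ND+EV minus ND the KIF20A groups did not overlap, and the difference was 0.20 (limma adjusted p = 0.771).

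KIF23, a motor of the centralspindlin complex that bundles midzone microtubules, read 4.04, 4.04 and 4.15 in HFD+EV, 3.76 and 4.04 in HFD, 4.04, 4.04 and 4.29 in ND+EV, and 4.04, 3.92 and 3.82 in ND. The value 4.04 recurred on 6 of the 11 arrays, in all 4 groups. Its difference was 0.18 in HFD+EV minus HFD (limma adjusted p = 0.934) and 0.20 in ND+EV minus ND (limma adjusted p = 0.662), the ND difference being 0.12 without ND+EV replicate 3. KIF2B, a microtubule depolymerase, had log2 signals of 4.01, 3.93 and 3.96 in HFD+EV and 3.53 and 3.75 in HFD, without overlap and with a difference of 0.32 (limma adjusted p = 0.92). Its ND arrays, at 4.50, 3.94 and 3.85, were also above both HFD arrays, at a difference of -0.46 in HFD minus ND (limma adjusted p = 0.237), which was -0.25 without ND replicate 1 and -0.30 without ND replicates 1 and 3.

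Of the remaining mitotic kinesins, the minus-end motor KIFC1 averaged 5.10 ± 0.04 in HFD+EV and 4.94 ± 0.004 in HFD, without overlap and with a difference of 0.16 (limma adjusted p = 0.971). KIF15, which helps keep the spindle bipolar, averaged 3.86 ± 0.14 in HFD+EV and 3.65 ± 0.13 in HFD, with overlap. KIF11, the main motor that pushes spindle poles apart, lay below the filter at 3.45 in HFD+EV, 3.36 in HFD, 3.36 in ND+EV and 3.31 in ND, and its groups overlapped throughout.

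The licensing helicase was represented by MCM2 and MCM4. MCM2 had log2 signals of 4.19, 3.80 and 3.95 in HFD+EV, 3.69 and 3.95 in HFD, 3.95, 3.78 and 4.08 in ND+EV, and 3.95, 4.01 and 4.31 in ND. MCM4 read 3.67, 3.97 and 3.98 in HFD+EV, 3.66 and 3.67 in HFD, 3.88, 3.67 and 3.67 in ND+EV, and 3.27, 3.60 and 4.75 in ND. Groups overlapped in all comparisons for both genes, and ND replicate 3 held the highest value of both. The largest difference of MCM2 was 0.31, in the difference of EV effects (limma adjusted p = 0.699). That of MCM4 in HFD+EV minus HFD was 0.21, with a 95% interval from -0.53 to 0.95.

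The 5 members with other roles were tested and none passed. The widest was CENPV, a protein that organises centromeric chromatin and microtubules, with means of 4.49 ± 0.44 in HFD+EV, 4.95 ± 0.35 in HFD, 4.77 ± 0.15 in ND+EV and 4.50 ± 0.28 in ND. Its groups overlapped in all 4 comparisons. The centriole protein CENPJ gave different answers on its 2 probe sets: in HFD+EV minus ND+EV the brighter gave -0.23 and the dimmer 0.27, and their mean gave 0.02. The centriolar kinesin KIF24 and the DNA repair helicases MCM8 and MCM9 had group means within 0.24 of each other.

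**Figure D2:**
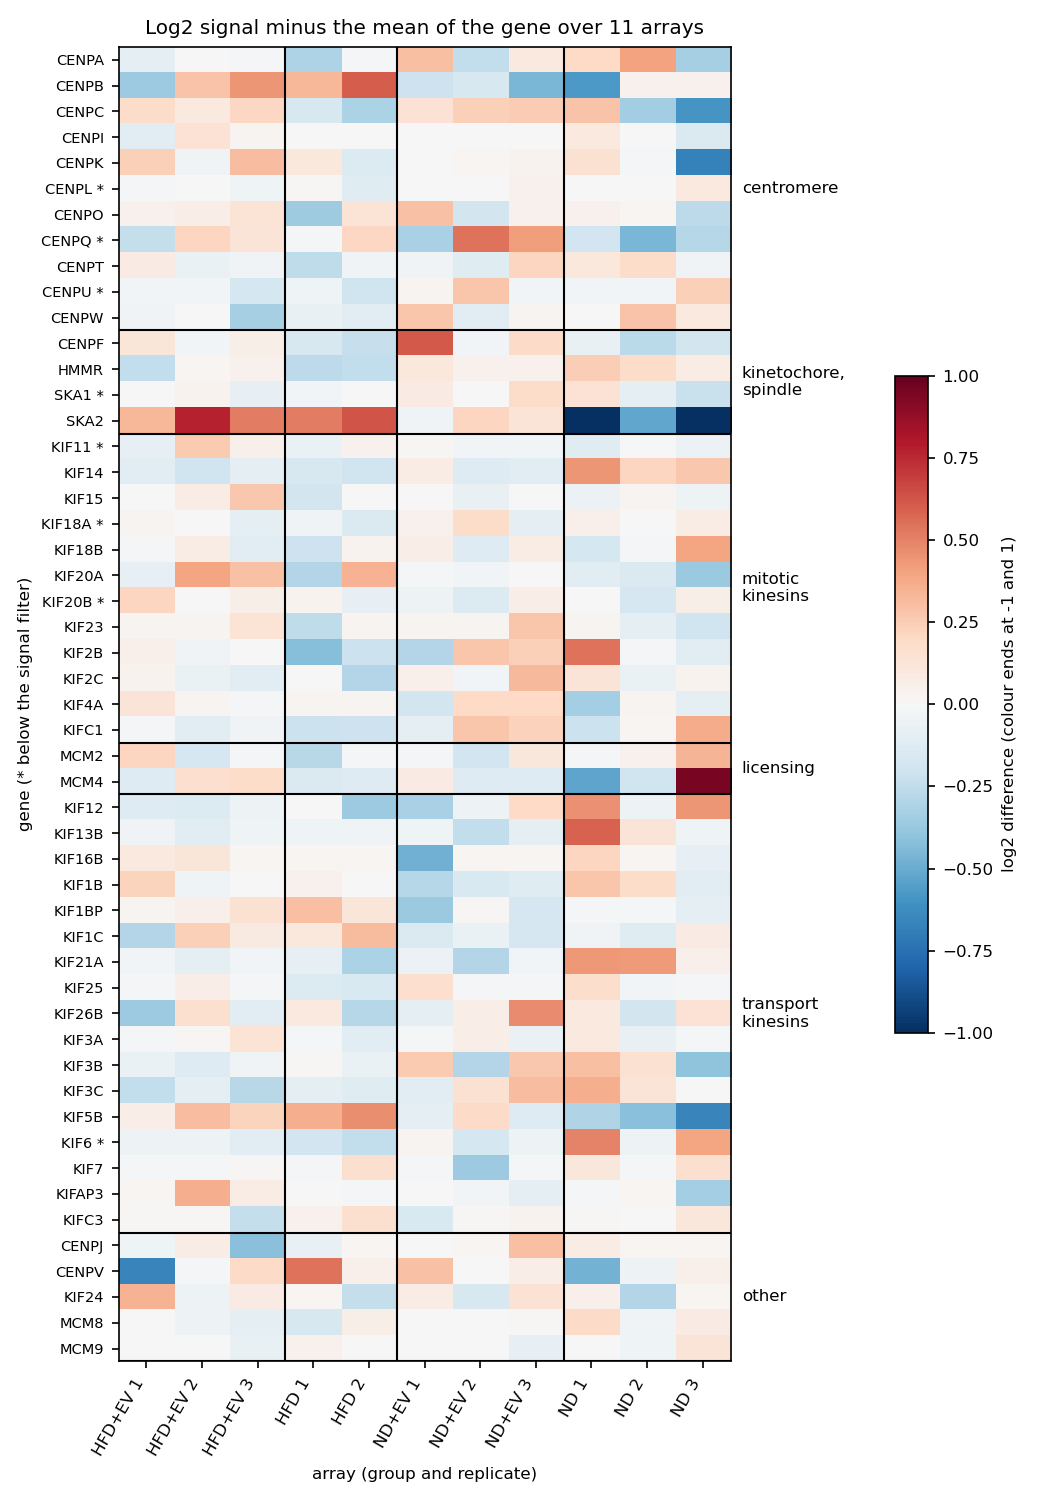
Log2 signal of each of the 51 genes (rows, grouped by role, an asterisk marking the 8 below the signal filter) minus its mean over the 11 arrays (columns, by group and replicate). Red is above and blue below the gene's mean, with colours ending at -1 and 1. SKA2 and KIF5B are blue on the ND arrays and red with the high fat diet, and ND replicate 1 is red for many transport kinesins.

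KIF5B, the heavy chain of conventional kinesin that all cells use to carry mitochondria and vesicles, was the other member past the threshold. Its log2 signal was 8.19, 8.43 and 8.34 in HFD+EV, 8.48 and 8.58 in HFD, 8.02, 8.31 and 7.99 in ND+EV, and 7.82, 7.70 and 7.46 in ND. The 3 ND arrays were the lowest and the 2 HFD arrays the highest of all. Group means were 8.32 ± 0.12 in HFD+EV (SD, n = 3), 8.53 ± 0.07 in HFD (n = 2), 8.11 ± 0.18 in ND+EV (n = 3) and 7.66 ± 0.18 in ND (n = 3). KIF5B rose in HFD relative to ND by 0.88 on the log2 scale (SE 0.154, limma adjusted p = 0.0471), which is 1.83-fold.

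Arrays with EV and with vehicle differed in KIF5B in opposite directions under the 2 diets, without overlap. All HFD+EV arrays were below both HFD arrays, a difference of -0.21 (SE 0.154, limma adjusted p = 0.925), and all ND+EV arrays were above all ND arrays, a difference of 0.45 (SE 0.138, limma adjusted p = 0.548). The difference between these EV effects was -0.67 (SE 0.207, limma adjusted p = 0.572), which did not pass. After cyclic loess this difference was -0.38, with -0.11 in HFD+EV minus HFD and 0.27 in ND+EV minus ND, and after quantile normalization it was -0.42. Opposite EV effects without overlap in both diets were seen in KIF5B alone of the 43 members tested, beside 1.67% of all probe sets, a share of the same order.

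The size of the KIF5B difference depended on scaling between arrays. In HFD minus ND it was 0.49 after cyclic loess (adjusted p = 0.139) and 0.53 after quantile normalization (adjusted p = 0.12). Without ND replicates 1 and 3 it was 0.83, with a limma adjusted p of 0.274. Leaving out single arrays gave 0.77 to 0.96 and ended the call for the same 9 arrays as for SKA2, with an adjusted p up to 0.263 without HFD 2. Across all probe sets, fold changes in HFD minus ND ran with signal: 22.1% of probe sets with a mean log2 signal below 4 were higher in HFD, against 72.7% of those at 6 or above. The part of this trend in the KIF5B difference was not tested beyond the scalings above.

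KIF21A, which restrains microtubule growth at the cell edge, had log2 signals of 5.02, 4.95 and 5.02 in HFD+EV, 4.96 and 4.73 in HFD, 4.99, 4.75 and 5.02 in ND+EV, and 5.48, 5.47 and 5.10 in ND. All ND arrays were above all other arrays, with ND replicate 3 close to them. The difference was -0.51 in HFD minus ND (SE 0.155, limma adjusted p = 0.095) and -0.43 in ND+EV minus ND (SE 0.139, limma adjusted p = 0.548). The second, dimmer probe set of KIF21A gave -0.06 and 0.04 in these comparisons, so the probe sets disagreed. Without ND replicates 1 and 3 the brighter probe set gave -0.63 in HFD minus ND and -0.55 in ND+EV minus ND.

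KIF1B, a motor for mitochondria and vesicle precursors, had log2 signals of 6.69, 6.43 and 6.47 in HFD+EV, 6.52 and 6.48 in HFD, 6.19, 6.33 and 6.35 in ND+EV, and 6.75, 6.65 and 6.36 in ND. The ND+EV arrays were the lowest of all, with ND replicate 3 just above them. The difference was -0.30 in ND+EV minus ND (limma adjusted p = 0.581) and 0.24 in HFD+EV minus ND+EV (limma adjusted p = 0.719), which was 0.16 after cyclic loess.

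KIF1C, a fast vesicle motor, read 6.48, 7.01 and 6.86 in HFD+EV, 6.88 and 7.09 in HFD, 6.62, 6.70 and 6.60 in ND+EV, and 6.73, 6.64 and 6.85 in ND. Both HFD arrays were above all ND arrays but close to ND replicate 3, and the difference was 0.24 (limma adjusted p = 0.389). KIF13B, a carrier of phosphoinositide-bearing vesicles, read 5.79, 5.72 and 5.78 in HFD+EV, 5.78 and 5.79 in HFD, 5.78, 5.58 and 5.73 in ND+EV, and 6.42, 5.96 and 5.78 in ND. Its ND arrays were the most spread, and the difference in ND+EV minus ND was -0.35 (limma adjusted p = 0.58), but -0.17 without ND replicate 1 and -0.26 without ND replicates 1 and 3.

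The kinesin-2 motors, which build and maintain cilia, were measured by 4 genes. KIF3A, KIF3B and the adaptor KIFAP3 averaged 4.31, 4.81 and 4.88 in HFD+EV, 4.21, 4.86 and 4.72 in HFD, 4.26, 4.97 and 4.68 in ND+EV, and 4.27, 4.91 and 4.61 in ND. KIF3C read 6.09, 6.24 and 6.05 in HFD+EV, 6.24 and 6.21 in HFD, 6.22, 6.48 and 6.64 in ND+EV, and 6.70, 6.46 and 6.33 in ND. Its difference in HFD+EV minus ND+EV was -0.32 (SE 0.141, limma adjusted p = 0.672), the only member there with an unadjusted p under 0.05.

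KIF1BP, the kinesin binding protein now named KIFBP, which holds motors off microtubules, averaged 4.74 ± 0.07 in HFD+EV, 4.88 ± 0.13 in HFD, 4.49 ± 0.19 in ND+EV and 4.63 ± 0.05 in ND. It was higher without overlap in both diet comparisons, by 0.25 in HFD minus ND (limma adjusted p = 0.29) and by 0.25 in HFD+EV minus ND+EV (limma adjusted p = 0.698). Those values were 0.16 without HFD replicate 1 and 0.15 without ND+EV replicate 1. KIF12 averaged 4.05 ± 0.05 in HFD+EV, 3.98 ± 0.25 in HFD, 4.10 ± 0.26 in ND+EV and 4.44 ± 0.29 in ND, and its difference of -0.47 in HFD minus ND (limma adjusted p = 0.19) was -0.13 without ND replicates 1 and 3 and -0.28 without HFD replicate 2. KIF16B, a motor of early endosomes, KIF25, KIF26B, the ciliary KIF7 and the minus-end motor KIFC3 had differences between -0.25 and 0.23 in the 4 comparisons. KIF6, below the filter, averaged 2.98 in HFD+EV, 2.83 in HFD, 2.98 in ND+EV and 3.33 in ND, with both HFD arrays below all others.

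Counting the genes whose groups did not overlap gives 9 of 51 in HFD+EV minus HFD, beside 22.6% of all probe sets, and 7 in ND+EV minus ND, beside 10.8%. It gives 16 in HFD minus ND beside 37.1%, and 4 in HFD+EV minus ND+EV beside 13.7%. With 2 HFD arrays, groups separate more often than with 3. The members' share was above that of all probe sets in ND+EV minus ND and below it in the other comparisons. CENPF and KIF5B were without overlap in both EV comparisons, CENPF in the same direction and KIF5B in opposite ones. SKA2 and KIF1BP were higher without overlap in both diet comparisons. Over all probe sets, only the share with opposite EV directions was counted, at 1.67%. How often all probe sets separate in the same direction in both EV or both diet comparisons was not counted. CENPF, SKA2 and KIF1BP therefore cannot be set against a share here.

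As lists, proliferation genes and transport kinesins were set side by side in each comparison. In HFD+EV minus HFD, 24 of 29 proliferation genes were higher in HFD+EV, with a median log2 difference of 0.12, against 8 of 17 transport kinesins, with a median of -0.01. Over all probe sets 53.3% were higher and the median was 0.01. All 12 mitotic kinesins were higher in HFD+EV, by 0.02 to 0.32, as were both licensing genes, 8 of 11 centromere genes and 2 of 4 kinetochore and spindle genes. None of the genes above the signal filter passed the test, and those below it were not tested. The size of these differences rests in part on HFD replicate 1. Without it the median of proliferation genes was 0.04, with 20 of 29 higher, and that of transport kinesins was 0.06.

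Dimmer probe sets as a whole also leaned towards HFD+EV in this comparison. Of all probe sets, 62.9% of those with a mean log2 signal below 4 were higher in HFD+EV, 56.1% of those from 4 to 5, 46.1% of those from 5 to 6 and 36.8% of those at 6 or above. Proliferation genes in the same ranges were higher in 13 of 16, 8 of 8, 3 of 4 and 0 of 1. After cyclic loess the proliferation median was 0.07 with 22 of 29 higher, and after quantile normalization it was 0.06 with 20 of 29 higher. The median of transport kinesins turned positive under both, at 0.01 and 0.02.

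In ND+EV minus ND the proliferation genes were split, 16 of 29 higher with a median of 0.02, while 4 of 17 transport kinesins were higher, with a median of -0.10. Over all probe sets 47.6% were higher and the median was -0.01. The transport kinesins that differed without overlap were KIF1B and KIF21A, lower in ND+EV, and KIF5B, higher in ND+EV. ND replicate 1 held the highest value of all arrays for 9 of the 17 transport kinesins, and without it 7 of 17 were higher in ND+EV, with a median of -0.11. Without both ND replicates 1 and 3 the median was -0.04.

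In HFD minus ND, 10 of 29 proliferation genes were higher with a median of -0.06, and 5 of 17 transport kinesins with a median of -0.06, beside 40.6% of all probe sets and a median of -0.07. The direction of the proliferation median flipped to 0.04 after cyclic loess and 0.05 after quantile normalization, whereas that of transport kinesins was -0.03 under both. Between HFD+EV and ND+EV, 11 of 29 proliferation genes and 10 of 17 transport kinesins were higher, with medians of -0.04 and 0.07, beside 44.6% and -0.02 for all probe sets. There the proliferation median was 0.02 without ND+EV replicate 3 and did not differ from 0 by more than 0.001 after either scaling. For the difference of EV effects, 19 of 29 proliferation genes and 10 of 17 transport kinesins were positive, beside 53.8% of all probe sets, with medians of 0.04 and 0.11. That proliferation median was -0.01 after cyclic loess and -0.02 after quantile normalization.

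**Figure D3:**
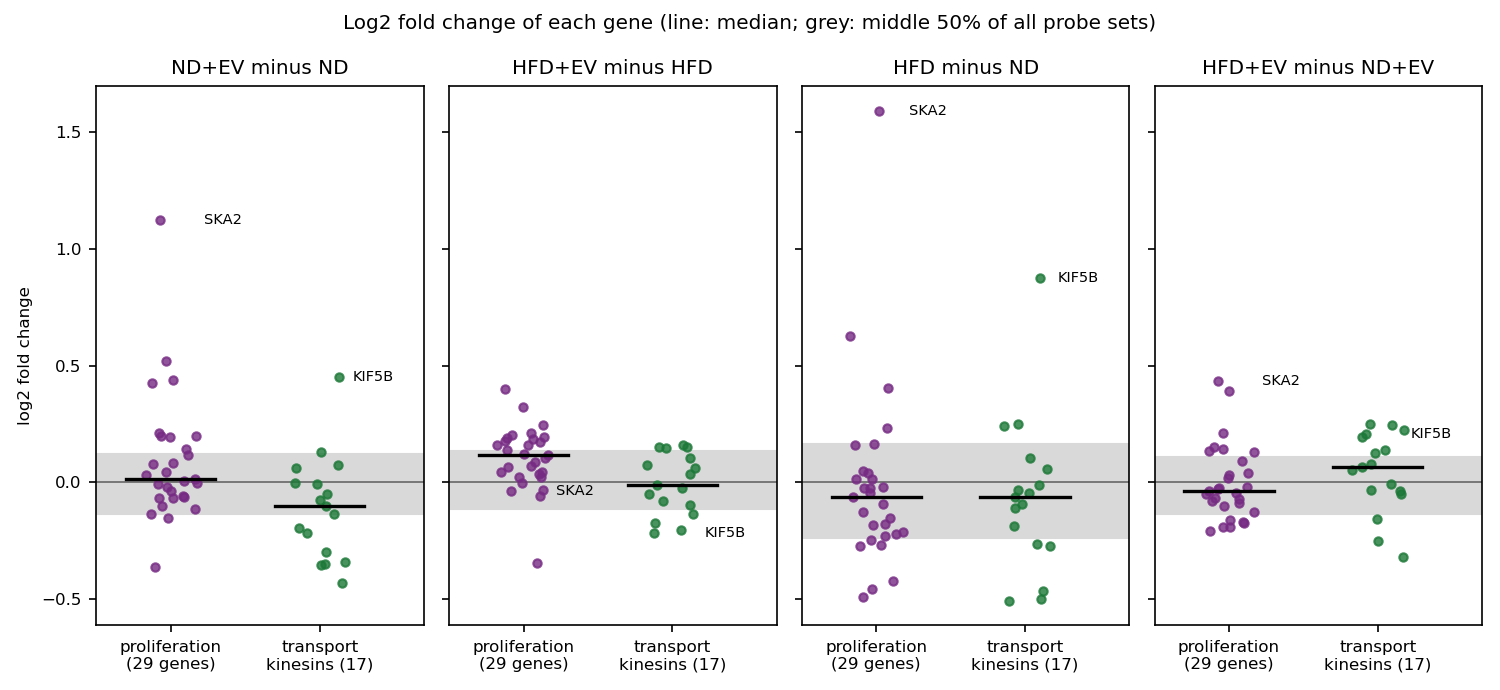
Log2 fold change (vertical axis) of each of the 29 proliferation genes and 17 transport kinesins in 4 comparisons (panels). Points are genes, lines are medians and the grey band holds the middle 50% of all probe sets. In HFD+EV minus HFD the proliferation median is 0.12 and that of transport kinesins is -0.01, and SKA2 and KIF5B are the highest genes in HFD minus ND.

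Ordered by group mean, HFD was the lowest of the 4 groups for 18 of 29 proliferation genes and 5 of 17 transport kinesins, beside 37.5% of all probe sets. The HFD minus ND part of this order flips after cyclic loess and quantile normalization as given above. Dim probe sets as a whole leaned the same way. Below a mean log2 signal of 4, 22.1% were higher in HFD minus ND and 62.9% in HFD+EV minus HFD. That range holds 16 of the 29 proliferation genes and 1 of the 17 transport kinesins. The 18 included 8 of the 12 mitotic kinesins, 6 of the 11 centromere genes, both licensing genes, and CENPF and HMMR of the kinetochore and spindle list. HFD+EV was the lowest for 1 proliferation gene and ND+EV for 2.

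A score per array, the mean over a list of each gene's log2 signal minus that gene's mean over the 11 arrays, gives the lists by sample. For proliferation genes it was 0.00, 0.07 and 0.06 in HFD+EV, -0.10 and -0.02 in HFD, 0.03, 0.02 and 0.08 in ND+EV, and -0.03, -0.03 and -0.07 in ND. In both diets every array with EV lay above every array with vehicle, by small amounts, while HFD replicate 2 lay above all 3 ND arrays. For the other cell cycle genes described further on, the score was -0.06, 0.03 and 0.05 in HFD+EV, -0.10 and 0.03 in HFD, 0.02, -0.01 and 0.13 in ND+EV, and -0.05, -0.01 and -0.02 in ND. There HFD+EV and HFD overlapped, while all ND+EV arrays were above all ND arrays. Without SKA2 the score of the proliferation genes was -0.01, 0.04 and 0.04 in HFD+EV, -0.12 and -0.05 in HFD, 0.03, 0.01 and 0.08 in ND+EV, and 0.00, -0.02 and -0.02 in ND, so the order held within each diet. In ND that order without SKA2 rests on a narrow gap, with ND+EV replicate 2 at 0.0134 and ND replicate 1 at 0.0015. The order of arrays was not recomputed after cyclic loess or quantile normalization. The list medians, another measure, stayed above 0 after these, at 0.07 and 0.06 in HFD+EV minus HFD and 0.05 and 0.04 in ND+EV minus ND. For transport kinesins the score was -0.05, 0.04 and -0.01 in HFD+EV, 0.02 and -0.03 in HFD, -0.10, -0.07 and 0.02 in ND+EV, and 0.19, 0.01 and -0.02 in ND. Those groups overlapped, and ND replicate 1 stood far above the rest.

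**Figure D4:**
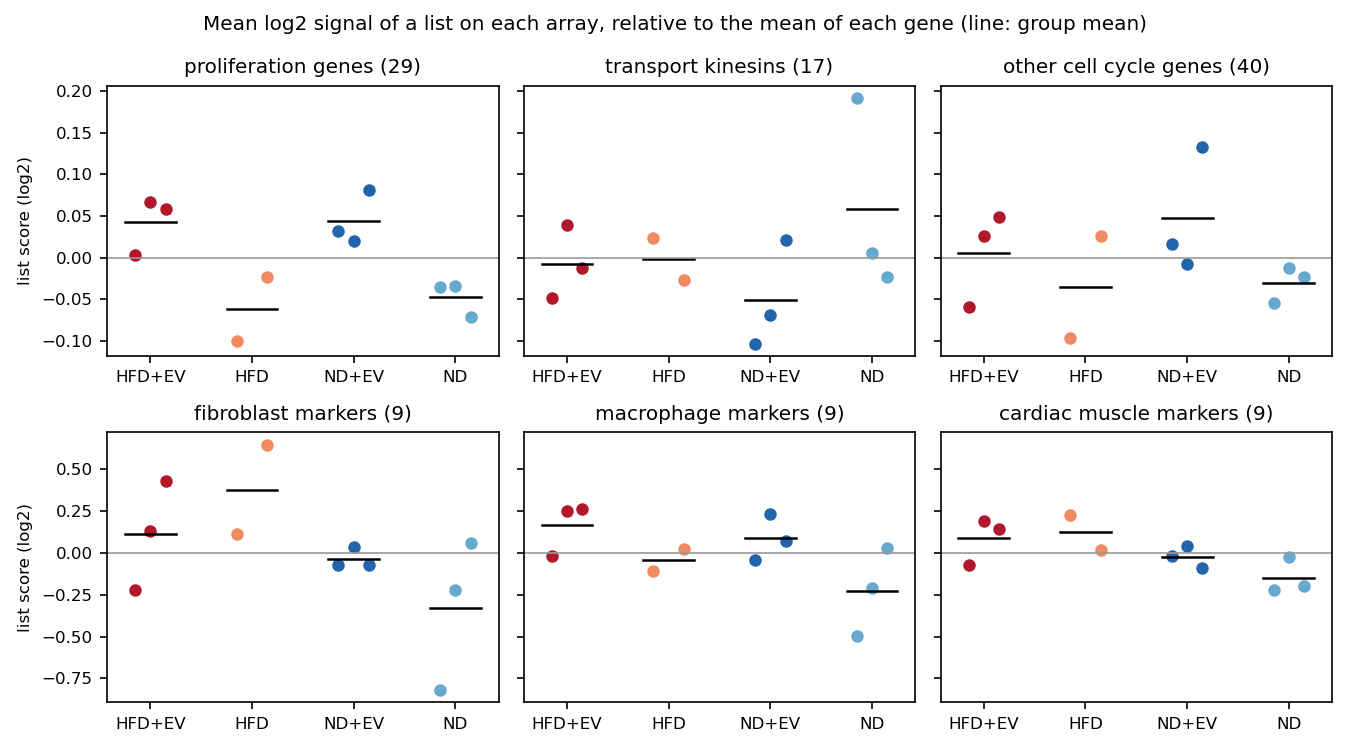
Mean log2 signal of 6 gene lists on each array relative to each gene's mean over the 11 arrays (vertical axis, on 1 scale for the upper panels and another for the lower), by group. Points are arrays and lines group means. For proliferation genes the arrays with EV lie between 0.00 and 0.08 and those with vehicle between -0.10 and -0.02; transport kinesins reach 0.19 on ND replicate 1.

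Other cell cycle genes, 72 symbols listed outside the families above, were measured for 40. Of these 40, 26 were higher in HFD+EV minus HFD (median 0.09), 28 in ND+EV minus ND (0.06), 15 in HFD minus ND (-0.05) and 15 in HFD+EV minus ND+EV (-0.06). As shares these are 65%, 70%, 37.5% and 37.5%, beside 53.3%, 47.6%, 40.6% and 44.6% of all probe sets. Of these, 33 were tested and none passed in any comparison. TOP2A, the topoisomerase that untangles chromosomes in dividing cells, read 4.88, 4.94 and 4.88 in HFD+EV, 4.44 and 4.995 in HFD, 4.88, 4.87 and 5.20 in ND+EV, and 4.80, 4.63 and 5.05 in ND, with overlap in every comparison.

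By the smallest p, the nearest of these genes in HFD+EV minus HFD were the cytokinesis kinase CIT at 0.28, the kinetochore protein SPC25 at 0.23 and the transcription factor MYBL2 at -0.26. In ND+EV minus ND they were MYBL2 at -0.34, the ubiquitin enzyme UBE2C at 0.23 and the cleavage furrow protein ANLN at 0.27. In HFD minus ND they were RRM1, a subunit of ribonucleotide reductase, at 0.60 (limma adjusted p = 0.0779), SPC25 at -0.34 and the mitotic checkpoint target CDC20 at -0.39. For HFD+EV minus ND+EV they were RRM1 at 0.43, CDK1, the kinase that starts mitosis, at -0.74 and the spindle pole kinase AURKA at -0.44.

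Kinesin light chains and cargo adaptors gave 15 measured genes, of which 5 were higher in HFD+EV minus HFD (median -0.08), 4 in ND+EV minus ND (-0.08), 8 in HFD minus ND (0.00) and 10 in HFD+EV minus ND+EV (0.08). As shares these are 33.3%, 26.7%, 53.3% and 66.7%, beside 53.3%, 47.6%, 40.6% and 44.6% of all probe sets. None passed. TRAK1, named here after its values were seen as the adaptor with the smallest p in both diet comparisons, joins KIF5B to mitochondria. It differed by 0.38 in HFD minus ND (limma adjusted p = 0.196) and by 0.36 in HFD+EV minus ND+EV (limma adjusted p = 0.649). TRAK1 is bright, at a mean of 8.76. At 6 or above, 72.7% and 63.3% of all probe sets were higher in these 2 comparisons. By group mean TRAK2 and RHOT1 of this list were also higher in HFD than in ND, while RHOT2 was lower, at 5.07 against 5.39.

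Cell cycle inhibitors gave 8 measured genes, of which 7 were tested and none passed. The numbers higher were 3, 4, 6 and 5 in HFD+EV minus HFD, ND+EV minus ND, HFD minus ND and HFD+EV minus ND+EV. As shares these are 37.5%, 50%, 75% and 62.5%, beside 53.3%, 47.6%, 40.6% and 44.6% of all probe sets. RBL1, a relative of the retinoblastoma protein named after its values were seen, differed by 0.56 in HFD minus ND (limma adjusted p = 0.06) and by 0.51 in ND+EV minus ND (limma adjusted p = 0.539).

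Markers of other cell types are set beside these results. Over all probe sets, 53.3% were higher in HFD+EV minus HFD and 47.6% in ND+EV minus ND. In HFD minus ND 40.6% were higher, and in HFD+EV minus ND+EV 44.6%. Of 9 fibroblast markers measured, 9 were higher in HFD minus ND and 0 in HFD+EV minus HFD, and their score was -0.22, 0.13 and 0.43 in HFD+EV, 0.11 and 0.65 in HFD, -0.07, 0.04 and -0.07 in ND+EV, and -0.82, -0.22 and 0.06 in ND. In ND+EV minus ND 8 of these 9 were higher, and in HFD+EV minus ND+EV also 8. Fibroblast markers thus ran with SKA2 and KIF5B in HFD minus ND. They ran against the proliferation list in HFD+EV minus HFD, but under the normal diet most of them were higher with EV. Bright probe sets as a whole leaned the same way. At a mean log2 signal of 6 or above, 72.7% were higher in HFD minus ND and 36.8% in HFD+EV minus HFD. In ND+EV minus ND 61.3% of these were higher, and in HFD+EV minus ND+EV 63.3%. Most fibroblast, cardiac muscle and endothelial markers lie in that range. Of 9 macrophage markers, 7 were higher in HFD+EV minus HFD and 7 in ND+EV minus ND. Their score ranged from -0.02 to 0.27 in HFD+EV, -0.11 to 0.02 in HFD, -0.04 to 0.23 in ND+EV and -0.50 to 0.03 in ND. Of 9 cardiac muscle markers, 6 were higher in HFD minus ND, 3 in HFD+EV minus HFD, 7 in ND+EV minus ND and 8 in HFD+EV minus ND+EV. Their scores ran from -0.07 to 0.19 in HFD+EV, 0.02 to 0.23 in HFD, -0.09 to 0.04 in ND+EV and -0.22 to -0.02 in ND. T and NK cell markers were higher for 10 of 12 in HFD+EV minus HFD and 5 of 12 in ND+EV minus ND, and markers of B and plasma cells for 5 of 5 and 3 of 5. Of 6 endothelial markers, 6 were higher in HFD minus ND, 6 in HFD+EV minus ND+EV, 2 in HFD+EV minus HFD and 3 in ND+EV minus ND. No tested marker of these lists passed in any comparison, and markers below the signal filter were not tested. The part of these cell types in the results was not tested.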

How the data were processed

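Total RNA of 11 pig left ventricle samples was hybridised to Affymetrix arrays. The authors deposited a log2 signal for each probe set on each array; Transcriptome Analysis Console is the tool in the submitters' processing notes. How the signal was summarised and normalized, and on which genome build, is not given in the sources used here; coordinates are therefore left out. Values ran from 2.14 to 14.02. Symbols come from the platform annotation, which may hold outdated names: 13157 probe sets had 1 symbol, 523 several and 13878 none. Of the 53 member probe sets, 50 were found in a current gene table. Probe sets with several symbols were not named. MCM3, MCM5, MCM6, MCM7, CENPE, SKA3, KIF13A and MKI67 are not analysed here.

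From these values, limma 3.58.1 in R 4.3.3 fitted 1 mean per group over all 11 arrays (lmFit, contrasts.fit, eBayes, with 7 residual and 3.62 prior degrees of freedom). Probe sets in the lowest 25% by mean signal, under 3.63, were not tested, which kept 20668. Two-sided p-values were adjusted over all of these by Benjamini-Hochberg, with a threshold of 0.05. Intervals are 95%. List counts and medians run over all genes of a list, above the filter or not, and carry no test. The members, the role and marker lists and the rule for named genes were chosen with earlier results of these data known. That rule picks, for each comparison, the 5 higher and 5 lower members with the smallest p and those past the threshold. It adds a set of standard genes and, outside the difference of EV effects, the 3 other cell cycle genes with the smallest p. Not every member picked is given above with its value for that comparison. KIF4A, picked for the difference of EV effects at -0.19 (limma adjusted p = 0.807), is not described above. The fit was tested on simulated data. Alternatives changed the filter, the scaling, the variance model, array weights, the arrays used, the replicate block and the choice of probe set.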

Additional observations from a re-analysis of the deposited data

Results flagged for a closer look

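KIF5B is listed here because its EV and vehicle groups, which are different samples, did not overlap in either diet. The arrays with EV lay lower under the high fat diet and higher under the normal diet. Its log2 signal was 8.19, 8.43 and 8.34 in HFD+EV, against 8.48 and 8.58 in HFD, and 8.02, 8.31 and 7.99 in ND+EV, against 7.82, 7.70 and 7.46 in ND. The difference between the EV effects was -0.67 (SE 0.207), with a limma adjusted p of 0.572, so the test of the difference itself did not pass. After cyclic loess it was -0.38 and after quantile normalization -0.42. This was 1 of the 43 members tested, and 1.67% of all probe sets showed opposite directions without overlap in this way, so the share among the members is near that of all probe sets.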

How the results depend on the processing

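With so few arrays and 0.735% of probe sets called in HFD minus ND at adjusted p values close to the threshold, small changes moved the 2 member calls there. SKA2 and KIF5B remained past it with the lower 50% of probe sets by signal left out and with the replicate block, each with 2 members called. The block changed no other member call; it raised the probe sets called in HFD minus ND to 938, against 152 without it. Deviations of same-numbered arrays correlated at a median of 0.078 (-0.103 to 0.335, above 0.1 in 5 of 15 pairs). For different numbers the median was -0.047 (above 0.1 in 5 of 30). Not every same-numbered pair was above 0.1, so the numbers were not taken to pair the arrays. This rule is strict, since the deviations of the 2 HFD arrays mirror each other. It does not show the numbers to be unrelated, and what same-numbered arrays may share was not tested. The count was 0 with no filter on low signal, after cyclic loess, after quantile normalization, with robust limma-trend, with array weights, without both ND arrays that stood apart, and with only the groups compared, and no probe set at all was called under these. With the lower 50% left out, 214 were called. Leaving out 1 array at a time gave 0 to 3 members, the 3 without ND replicate 2 being SKA2, KIF5B and KIF14, and 0 to 1356 probe sets. For the F test this gave 0 to 1, the 1 being SKA2 without ND replicate 2, and for the other comparisons 0 to 0. The cause of these changes was not tested.

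The median of proliferation genes in HFD+EV minus HFD was 0.074 after cyclic loess, 0.060 after quantile normalization and 0.16 over the genes above the signal filter (an alternative chosen after seeing the data), and 0.037 to 0.14 without 1 array. In ND+EV minus ND it was 0.14 with the lower 50% left out, and 0.015 to 0.045 without 1 array. In HFD minus ND it was -0.021 with the lower 50% left out, 0.036 after cyclic loess, 0.048 after quantile normalization and -0.11 above the filter, and -0.088 to -0.055 without 1 array. In HFD+EV minus ND+EV it was 0.000073 after cyclic loess and -0.000903 after quantile normalization, and -0.041 to 0.018 without 1 array. For the difference of EV effects it was -0.024 with the lower 50% left out, -0.012 after cyclic loess and -0.018 after quantile normalization, and 0.013 to 0.061 without 1 array. The median of transport kinesins for that difference was 0.036 without both ND arrays that stood apart. CENPJ in HFD+EV minus ND+EV turned to 0.015 as the mean of its probe sets.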

Other observations

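Some members held the same value on many arrays. In 7 of the 51 genes, at least 6 of the 11 arrays lay within 0.01 of each other on the log2 scale, which is 13.7% of members, against 2.88% of all probe sets. They were the transport kinesins KIF7, KIF13B, KIF16B and KIF25, the proliferation genes KIF23 and CENPL, and MCM9.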
